A study of Mus musculus with 4 samples.

Results

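The 8 small nucleolar RNA host genes Gas5, Snhg1, Snhg3, Snhg5, Snhg6, Snhg7, Snhg8 and Snhg12 were read from the RNA-seq table of unscaled FPKM (fragments counted relative to transcript length and library size), by gene name and without the rows of another assay. They are 8 of 23366 genes in the table. Each has 1 row, and all 8 averaged 1 FPKM or more, the filter on low values that 11640 genes passed. The study measured polyadenylated RNA in immortalized fibroblasts from mouse embryos (connective tissue cells), as 4 cultures. They carried Myc, MycN, a protein named Minimal Myc, or only the empty vector, and every one of them, the vector culture included, was treated with an adenovirus that delivers the recombinase Cre. Recovery before harvest is given as 48 with no unit. The design text calls the vector cells Myc-deleted and sets them against cells with a Myc protein, to follow expression changes across the cell. How the fibroblasts were immortalized, which promoter drives each protein, whether a culture is 1 clone and how Minimal Myc differs from Myc are not stated in the labels. There is 1 library per culture, so no difference below has a replicate check, none was tested, and the spread that would separate neighbouring levels could not be measured.

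Small nucleolar RNAs (snoRNAs) are short RNAs of the nucleolus that guide chemical changes of ribosomal RNA, either methylation of the ribose (box C/D class) or conversion of uridine to pseudouridine (box H/ACA class). Most of them in mammals are cut from introns of longer host transcripts. A host gene of the Gas5 and Snhg kind has exons with little or no coding content, so its spliced RNA carries no ribosomal message of its own. The spliced RNAs of several of these hosts, Gas5 among them, are known to start with a run of pyrimidines as ribosomal protein messages do, and to be degraded by nonsense-mediated decay, the pathway that destroys messages with early stop codons. Myc proteins are transcription factors known for driving ribosome production.

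The starts of 7 of the 8 genes are printed because several of the host genes share features there. RefSeq's promoter table (build GRCm38.p6, later than the authors' build mm9) holds no entry for Snhg6 and 2 for Gas5, of which the second is shown. Each line holds 100 bases, 60 before and 40 from the annotated start. Capitals mark TATAA on the sense strand within the 60 bases before the start, and any run of at least 6 C or T between 25 bases before and 25 after it. The Snhg3 window and the Gas5 entry that is not shown have neither. The windows are chr1:161035106-161035205 (plus strand) for Gas5, chr19:8723427-8723526 (plus strand) for Snhg1, chr4:132353647-132353746 (minus strand) for Snhg3, chr9:88522858-88522957 (minus strand) for Snhg5, chr2:26640205-26640304 (minus strand) for Snhg7, chr3:123508297-123508396 (minus strand) for Snhg8 and chr4:132308618-132308717 (plus strand) for Snhg12.
Gas5: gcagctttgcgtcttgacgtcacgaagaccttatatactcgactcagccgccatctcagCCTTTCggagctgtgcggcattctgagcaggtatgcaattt
Snhg1: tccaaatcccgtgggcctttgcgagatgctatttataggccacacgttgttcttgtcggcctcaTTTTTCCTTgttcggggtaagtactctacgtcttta
Snhg3: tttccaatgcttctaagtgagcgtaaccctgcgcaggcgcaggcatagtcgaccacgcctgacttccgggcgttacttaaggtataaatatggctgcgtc
Snhg5: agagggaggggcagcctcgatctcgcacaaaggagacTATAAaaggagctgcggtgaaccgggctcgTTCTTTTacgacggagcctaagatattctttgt
Snhg7: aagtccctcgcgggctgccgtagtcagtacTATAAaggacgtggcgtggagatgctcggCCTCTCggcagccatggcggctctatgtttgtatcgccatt
Snhg8: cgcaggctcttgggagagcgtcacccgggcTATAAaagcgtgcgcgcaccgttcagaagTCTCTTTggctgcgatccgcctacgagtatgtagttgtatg
Snhg12: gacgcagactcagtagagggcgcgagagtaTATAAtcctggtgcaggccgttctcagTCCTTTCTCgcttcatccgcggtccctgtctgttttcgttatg

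TATAA, the core of the TATA box bound by the general transcription machinery, lay 30 bases before the start in Snhg7, Snhg8 and Snhg12 and 23 bases before it in Snhg5. Those 4 of the 8 host entries compare with 1831 of 32851 promoter entries of the same length (5.57%). On either strand it was in 6 of 8 entries, against 7.24% of all, with Gas5 and Snhg1 holding it on the opposite strand. The pyrimidine run was in 6 of 8 entries against 43.9% of all. It was 9 bases long in Snhg1 and Snhg12, 7 in Snhg5 and Snhg8, and 6 in Gas5 and Snhg7. TATAA on the sense strand together with such a run was found in 4 of 8 entries against 2.61% of all. The Snhg3 window has TATAA only after its annotated start, which the search did not cover. CACGTG, the letters Myc and its partner Max prefer, was in 0 of the 8 full entries of 300 bases on both strands, against 7.15% of all. CCAAT was in 3 of 8 on either strand, in Snhg3, Snhg5 and Snhg8, against 37.4%. The letters were chosen after these promoters had been read, a match does not show a site in use, and no match says only that the letters are not in this window.

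**Figure D1:**
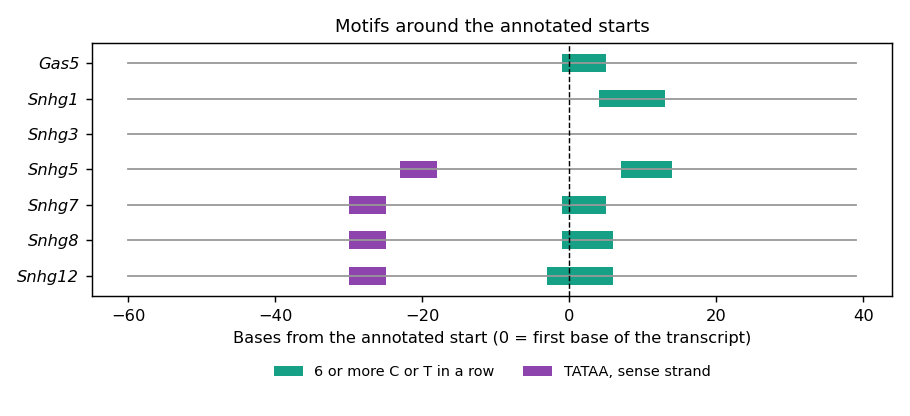
Position of TATAA (purple) and of runs of 6 or more C or T (green) around the annotated start of 7 host genes, in bases from the start on the x axis, with 1 line per gene. The purple blocks of Snhg7, Snhg8 and Snhg12 begin at -30, and the green blocks of Gas5, Snhg7, Snhg8 and Snhg12 span the start.

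The host genes carry 28 snoRNAs within their RefSeq limits: 8 in Gas5, 8 in Snhg1, 4 in Snhg12, 2 each in Snhg3, Snhg5 and Snhg7, and 1 each in Snhg6 and Snhg8. Printed here from the GENCODE transcripts are 3 box C/D snoRNAs whose own values are given further on, in DNA letters. Capitals mark TGATGA near the front (the C box) and CTGA near the end (the D box), the short motifs that the methylation complex binds. Snord47 comes from Gas5, Snord87 from Snhg6 and Snord99 from Snhg12.
Snord47: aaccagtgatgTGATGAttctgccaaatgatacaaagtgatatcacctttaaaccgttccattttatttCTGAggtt
Snord87: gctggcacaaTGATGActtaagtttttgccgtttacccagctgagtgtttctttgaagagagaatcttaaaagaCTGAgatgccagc
Snord99: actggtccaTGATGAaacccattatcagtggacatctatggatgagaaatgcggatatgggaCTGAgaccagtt

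Facts of the libraries bear on every value. From the whole-fragment steps of low FPKM values, the libraries held an estimated 67400000 (vector), 68300000 (Myc), 93500000 (MycN) and 88800000 (Minimal Myc) fragments. Of the 849 to 924 values per library of up to about 4 fragments, 66.2% to 67.0% lay within 5% of a whole number. The step was set from the commonest of the low values, so this share is not a separate check of it. By this estimate 7 host genes had 660 to 9066 fragments per library, so counting error alone is at most 3.89% for them. Snhg7 was not matched to a transcript length. FPKM are shares of a library. The small RNA Mir5109 alone stood at 185861 FPKM in vector and at 6331 to 26320 in the others. The genes past the filter summed to 1.37 to 1.61 times the vector sum in the other libraries. The median gene was higher than in vector by 0.47 with Myc, 0.42 with MycN and 0.47 with Minimal Myc, on the log2(FPKM + 1) scale used for all differences here. That scale slightly understates the difference of a low gene. Myc itself was at 22.2 FPKM in vector cells, 141 with Myc, 4.36 with MycN and 32.6 with Minimal Myc. The labels do not say which part of the gene was deleted, so the Myc row does not check the deletion, and Myc was lowest in MycN rather than in vector. Mycn was at 0.39 FPKM in vector cells, 0.275 with Myc, 178 with MycN and 95.9 with Minimal Myc. The Minimal Myc library thus had Mycn far above vector and Myc nearer to the vector level. Which gene Minimal Myc was built from is not stated in the labels. Of 14 fibroblast markers 13 had a mean of at least 1 FPKM, with Lum below 1 in every library, and their sum was 3002 to 4177 FPKM per library. Epithelial markers summed to 1.75 to 13.5 FPKM (5 of 6 below 1 in every library), immune markers to 2.98 to 8.38 (3 of 6), endothelial to 0.146 to 1.18 (4 of 4), neural to 12.4 to 23.9 (2 of 4) and skeletal muscle to 0.154 to 1.09 (3 of 4, with 1 listed at 0).

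Snhg1 and Snhg6 were the abundant members. Snhg1, host of 8 snoRNAs, stood at 172 FPKM in vector cells, 284 with Myc, 239 with MycN and 231 with Minimal Myc. Snhg6, host of Snord87, stood at 94.9, 136, 154 and 234 FPKM in the same order. Snhg1 was thus lowest in vector and highest in Myc, whereas Snhg6 was highest in Minimal Myc, the 1 library where it stood above Snhg1. The ratio of Snhg6 to Snhg1, which no scaling of a whole library can alter, was 0.551 in vector cells, 0.479 with Myc, 0.644 with MycN and 1.01 with Minimal Myc.

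Gas5, the growth arrest-specific transcript known to build up in cells that stop dividing, stood at 17.4 FPKM in vector cells, 29.1 with Myc, 25 with MycN and 32.2 with Minimal Myc. Snhg5, host of 2 snoRNAs, had nearly the same profile at a higher level, with 27.2, 37.1, 44.3 and 46.7 FPKM in vector, MycN, Myc and Minimal Myc. Snhg12, host of 4 snoRNAs of both classes, stood at 24.1 FPKM in vector cells, 45.8 with Myc, 31.0 with MycN and 44.9 with Minimal Myc. These 3 genes were lowest in vector, second lowest in MycN, and close together in Myc and Minimal Myc. Over their 3 differences from vector, Gas5 and Snhg5 were the nearest pair of all 8 genes (Euclidean distance 0.114 in log2 units), and Gas5 and Snhg12 the next (0.242). Snhg3 and Snhg6 were the farthest apart (1.308).

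Snhg3, Snhg7 and Snhg8 had the smallest differences between vector and Myc. Snhg3, host of the H/ACA snoRNAs Snora73a and Snora73b, stood at 61.5 FPKM in vector cells, 83.4 with Myc, 49.1 with MycN and 85.4 with Minimal Myc. Snhg8, host of Snora24, stood at 21.5, 23.6, 18.1 and 33.1 FPKM. Both had their lowest level in MycN, below vector, and their highest in Minimal Myc. Snhg7, host of Snora43 and Snora17, was the lowest member in every library, with 12.8 FPKM in vector cells, 16 with Myc, 14.6 with MycN and 15.9 with Minimal Myc, a span of 1.25-fold.

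**Figure D2:**
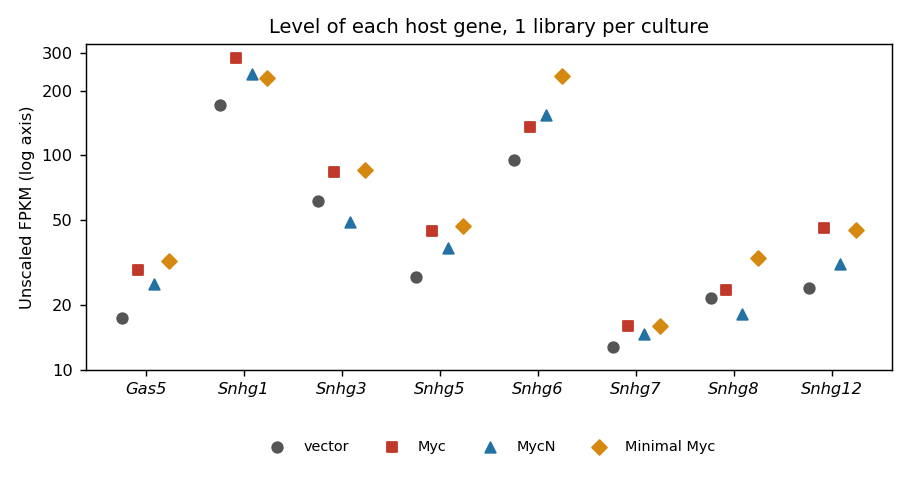
Unscaled FPKM (y axis, log scale) of each host gene (x axis) in the vector, Myc, MycN and Minimal Myc libraries, 1 point per library and no error bars because each culture has 1 library. Snhg1 ranges from 172 to 284 and Snhg6 from 94.9 to 234, while Snhg7 stays between 12.8 and 16.

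The order of levels was much alike between libraries. Snhg1, Snhg6 and Snhg3 were the top 3 and Snhg7 the last in each of the 4 libraries, and the 4 genes between them stood at 17.4 to 46.7 FPKM. Snhg1 held 39.9% of the summed FPKM of the 8 in vector cells, 42.9% with Myc, 42.1% with MycN and 31.9% with Minimal Myc. Some of the order rests on the transcript models. The Gas5 identifier in the table matches a GENCODE transcript of 2556 bases with a retained intron, and that of Snhg8 one of 776 bases, also with a retained intron. The other 5 matched were 400 to 1004 bases long. FPKM divide by length, so the place of Gas5 below Snhg5 and Snhg12 was not tested against a spliced model of the gene. Comparisons of 1 gene between libraries use the same model throughout.

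Against vector, all 8 host genes were higher in Myc, by 0.13 (Snhg8) to 0.90 (Snhg12) with a median of 0.60, where the median of all genes was 0.47 and 83.5% of all genes were above 0. The direction rests on the scale of the library: 8 of 8 were higher in the authors' scaled table too, 5 of 8 lay above the median gene, 4 of 8 were higher when the genes past the filter were given equal sums, and 0 of 8 were higher relative to ribosomal protein genes. None of the 8 reached a 2-fold difference (1 on this scale), against 11.2% of all genes that were at least 2-fold higher and 1.56% lower. Snhg12 came nearest with a ratio of 1.90 and lay above 84.1% of genes. Gas5 had a ratio of 1.67, Snhg1 1.65, Snhg5 1.63, Snhg6 1.43, Snhg3 1.36, Snhg7 1.25 and Snhg8 1.10. Snhg8 lay above 22.9% of genes.

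In MycN, 6 of 8 were higher than vector in unscaled FPKM and 2 were lower, with a median of 0.39 beside 0.42 for all genes, of which 81.8% were above 0. The count above vector was 8 in the scaled table, 4 after subtracting the median gene, 3 with equal sums and 1 relative to ribosomal protein genes. Again 0 of 8 reached 2-fold, against 7.65% of genes higher and 1.86% lower. The highest was Snhg6 at 0.69 (ratio 1.62), above 76.2% of genes. The lowest were Snhg3 at -0.32 (ratio 0.799) and Snhg8 at -0.24 (ratio 0.841), above 7.94% and 9.82% of genes. In the authors' scaled table both of these were slightly above vector, with ratios of 1.04 and 1.09, so their side of vector depends on the scale while their place near the bottom of the 8 does not. Gas5, Snhg1, Snhg5, Snhg12 and Snhg7 had ratios of 1.43, 1.39, 1.36, 1.28 and 1.14.

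In Minimal Myc, all 8 were higher than vector in unscaled FPKM, by 0.29 (Snhg7) to 1.29 (Snhg6) with a median of 0.68 beside 0.47 for all genes, of which 83.0% were above 0. After subtracting the median gene 5 of 8 were above 0, with equal sums 4 of 8, and relative to ribosomal protein genes 1 of 8, which was Snhg6. Snhg6 alone reached 2-fold, at 2.46 times vector, which is 1 of 8 where 13.6% of all genes were as much higher and 1.68% lower. It lay above 94.0% of genes. Minus the median gene its difference was 0.82, under 2-fold. Snhg12 followed with a ratio of 1.86, Gas5 with 1.85, Snhg5 with 1.72, Snhg8 with 1.54, Snhg3 with 1.39, Snhg1 with 1.34 and Snhg7 with 1.24. The 3 comparisons use the same vector library and are given side by side, not as separate evidence.

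**Figure D3:**
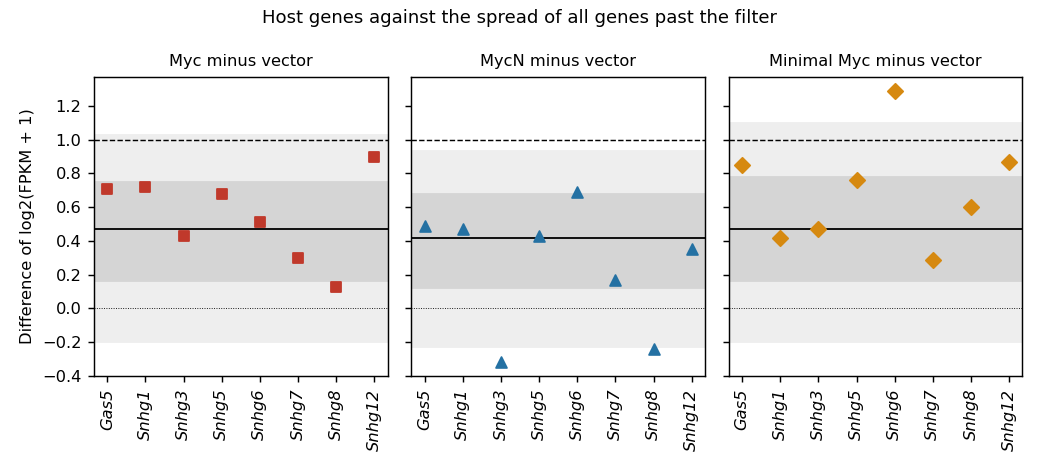
Difference of log2(FPKM + 1) from vector (y axis) of each host gene (x axis) in Myc, MycN and Minimal Myc, with the median of 11640 genes (solid line), their middle 50% (dark band) and middle 80% (light band), and 2-fold (dashed). Snhg6 in Minimal Myc (1.29) lies above the light band, whose top is 1.10 there. Snhg3 (-0.32) and Snhg8 (-0.24) in MycN lie just below its lower edge at -0.23, and both are above vector in the authors' scaled table.

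Between the Myc proteins, MycN was lower than Myc in 7 of 8 host genes, with a median of -0.25 beside -0.06 for all genes, of which 43.6% were above 0. Snhg6 was the exception in unscaled FPKM, at 154 against 136, but not in the authors' scaled table, where it differed by -0.47 and 0 of 8 were higher in MycN. Minus the median gene 1 of 8 was higher in MycN than in Myc, and with equal sums 3 of 8 were, with a median of -0.03. Relative to ribosomal protein genes 6 of 8 were higher in MycN. The direction thus depends on the scale. The greatest gap was that of Snhg3, with a ratio of 0.589, followed by Snhg12 with 0.676. No host gene differed by 2-fold, against 1.95% of genes higher and 2.74% lower in MycN.

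Minimal Myc and Myc had like levels in Gas5, Snhg3, Snhg5, Snhg7 and Snhg12, with ratios of 1.11, 1.02, 1.06, 0.995 and 0.981. Snhg6 (ratio 1.72) and Snhg8 (1.40) were higher in Minimal Myc and Snhg1 (0.813) was lower. The median was 0.06 beside -0.03 for all genes, of which 47.3% were above 0 (5 of the 8), and 0 of 8 reached 2-fold, against 4.48% of genes higher and 2.16% lower. In the authors' scaled table, where the Myc column is multiplied by 2.04 and that of Minimal Myc by 1.28, only Snhg6 of the 8 was higher in Minimal Myc. Against MycN, 7 of 8 were higher in Minimal Myc (median 0.44, all genes 0.05, of which 53.3% were above 0), led by Snhg8 (ratio 1.83), Snhg3 (1.74) and Snhg6 (1.52), with Snhg1 at 0.963. Here too 0 of 8 reached 2-fold, against 6.94% of genes higher and 3.69% lower.

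Relative to the geometric mean of the 8 in the same library, which removes any library-wide factor, Snhg6 went from 1.33 (log2) in Myc and 1.38 in vector to 1.81 in MycN and 1.97 in Minimal Myc. Snhg1 went the other way in Minimal Myc, to 1.95 from 2.24 in vector, 2.39 in Myc and 2.45 in MycN. Snhg3 was at 0.75 in vector, 0.63 in Myc, 0.51 in Minimal Myc and 0.16 in MycN. Snhg5 moved least of the 8, over a range of 0.18, and Gas5 next, over 0.25.

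Other non-coding snoRNA hosts were taken from a list of 13, of which 10 passed the filter. Of these 10, 8 were above vector in each comparison in unscaled FPKM, where 83.5%, 81.8% and 83.0% of all genes were. Their medians against vector were 0.53 with Myc, 0.43 with MycN and 0.26 with Minimal Myc, beside 0.47, 0.42 and 0.47 for all genes. Relative to ribosomal protein genes 0, 4 and 2 of the 10 were above vector. Zfas1 was 61.7 FPKM in vector cells, 133 with Myc, 83.8 with MycN and 103 with Minimal Myc, and Snhg15 was 42.1, 66.1, 57.3 and 82.5. Both were lowest in vector. Snhg16 stood at 15.2, 26.5, 32.4 and 22.8 FPKM, Snhg17 at 8.94, 12.9, 15.0 and 8.84, and Snhg20 at 38.5, 52.9, 79.1 and 43.4 in the same order. These 3 had their highest level in MycN in unscaled FPKM, unlike any of the 8. The authors' scaled table multiplies Myc by 2.04 and MycN by 1.30, so their order of Myc and MycN depends on the scale. Dancr stood at 8.09, 13.1, 8.82 and 10.6 FPKM, Snhg4 at 20, 30.4, 13.6 and 20.4, and Snhg9 at 17.4, 13.0, 20.1 and 17.4. In unscaled FPKM Snhg4 was lowest in MycN, as Snhg3 and Snhg8 were, and Snhg9 was lowest in Myc and highest in MycN. Snhg10 hardly varied in unscaled FPKM, at 6, 5.79, 5.83 and 5.90, while the median gene was above vector in all 3 comparisons. Its steadiness is thus tied to that scale. Rian, an imprinted RNA that hosts many box C/D snoRNAs, was 0.134 FPKM in vector cells, 0.163 with Myc, 0.988 with MycN and 9.74 with Minimal Myc. Snhg11 was below the filter, and Snhg14 and Snhg18 were not analysed here.

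Protein-coding genes that host snoRNAs in their introns had higher median differences from vector than the 8. Of 46 such genes, 31, 10 and 14 were at least 2-fold higher in unscaled FPKM with Myc, MycN and Minimal Myc. Of all genes 11.2%, 7.65% and 13.6% were as much higher. None of the 46 was 2-fold lower, against 1.56%, 1.86% and 1.68% of all genes. The medians of the 46 were 1.13, 0.72 and 0.87, where those of the 8 were 0.60, 0.39 and 0.68. In Myc 35 of the 46 lay above Snhg12, the highest of the 8, and none lay below Snhg8, the lowest. In MycN 25 of 46 lay above the highest of the 8, and in Minimal Myc 7. The 21 of them that encode ribosomal proteins and the 25 others had like medians in Myc (1.16 and 1.12). The 21 had the higher median in MycN (0.80 and 0.60) and in Minimal Myc (0.92 and 0.79). Ncl, the nucleolar protein nucleolin, was 59.9 FPKM in vector cells, 221 with Myc, 153 with MycN and 163 with Minimal Myc. Rabggtb, a subunit of an enzyme that adds lipid to Rab proteins, differed least, at 59.5, 68.2, 61.7 and 79.8 FPKM. Minus the median gene 44, 41 and 41 of the 46 were above 0, where 5, 4 and 5 of the 8 were. Relative to ribosomal protein genes 25, 25 and 18 of 46 were above 0, where 0, 1 and 1 of the 8 were. The 21 ribosomal protein genes among the 46 help to set that scale, so the count of the 46 on it is partly fixed in advance. These counts and medians describe the libraries, and the gap between the lists was not tested.

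The proteins that bind snoRNAs also had higher median differences from vector than the 8 hosts. All 8 core proteins were higher than vector with Myc, MycN and Minimal Myc in unscaled FPKM. When the median gene was subtracted 8, 8 and 7 were, and relative to ribosomal protein genes 6, 5 and 4. In unscaled FPKM 6, 3 and 4 were at least 2-fold higher, where 11.2%, 7.65% and 13.6% of all genes were. The unscaled medians of the core proteins were 1.37, 0.86 and 0.99. Dkc1, the pseudouridine synthase of H/ACA particles, was 15.4 FPKM in vector cells, 49.1 with Myc, 38.1 with MycN and 51.2 with Minimal Myc. Nop58, a core protein of C/D particles, was 48.7, 159, 119 and 124 FPKM, and Nhp2, of H/ACA particles, was 47.8, 144, 80.7 and 179. Nop10, the small H/ACA protein, differed least, at 65.9, 115, 100 and 89.7 FPKM. The core proteins Dkc1, Nop56 and Nop58 are also snoRNA hosts and count in both lists. Of 10 assembly factors 4, 0 and 1 were at least 2-fold higher, with medians of 0.89, 0.69 and 0.73, where 11.2%, 7.65% and 13.6% of all genes were as much higher. Relative to ribosomal protein genes 4, 6 and 4 of the 10 were above vector, with medians of -0.14, 0.05 and -0.18. Ruvbl1, an ATPase of the assembly complex, was 29.8 FPKM in vector cells, 84.7 with Myc, 59.2 with MycN and 69.0 with Minimal Myc. Nolc1, a nucleolar and Cajal body protein, was 38.1, 105, 73.5 and 59.4 FPKM, and Shq1, a chaperone of dyskerin, 4.37, 9.84, 8.53 and 9.30. Pih1d1, of the same assembly pathway, was 20.3, 30.8, 20.1 and 30.8 FPKM.

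Among messages with pyrimidine starts, 7 of the 16 listed for translation were at least 2-fold higher with Myc, 1 with MycN and 4 with Minimal Myc, with medians of 0.90, 0.60 and 0.76, where 11.2%, 7.65% and 13.6% of all genes were as much higher. Relative to ribosomal protein genes 5, 7 and 5 of the 16 were above vector, with medians of -0.22, -0.08 and -0.19. Npm1, a nucleolar chaperone, was 345 FPKM in vector cells, 1054 with Myc, 588 with MycN and 1187 with Minimal Myc. Eef1b2, an elongation factor subunit and snoRNA host, was 118, 303, 291 and 261 FPKM, Eef1a1, the main elongation factor, 1778, 4218, 3482 and 3652, and Hnrnpa1, an RNA-binding protein, 104, 152, 123 and 150. Ribosomal protein genes (81 measured) had medians of 1.16, 0.71 and 0.92. Their near-identical processed copies make single values uncertain. The median of the 8 host genes lay below both of these medians in each comparison with vector, while Snhg6 at 1.29 in Minimal Myc lay above both.

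Factors of nonsense-mediated decay, the pathway known to remove several of these host RNAs, had medians close to that of all genes in MycN and Minimal Myc. Of 17, 3 were at least 2-fold higher with Myc, 0 with MycN and 3 with Minimal Myc, with medians of 0.64, 0.43 and 0.51, where 11.2%, 7.65% and 13.6% of all genes were as much higher. Above the median gene lay 14, 9 and 9 of 17, and relative to ribosomal protein genes 3, 4 and 3 of 17 were above vector. Upf3b, which links the exon junction complex to the decay factors, was 6.97 FPKM in vector cells, 16.9 with Myc, 14.8 with MycN and 20 with Minimal Myc. Magoh, a subunit of that junction complex, was 99.9, 227, 180 and 235 FPKM, and its close copy Magohb 8.84, 26.6, 13.7 and 64.9. Dhx34, a helicase of the pathway, was 5.74, 5.38, 6.79 and 4.39 FPKM. Decay itself was not measured.

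**Figure D4:**
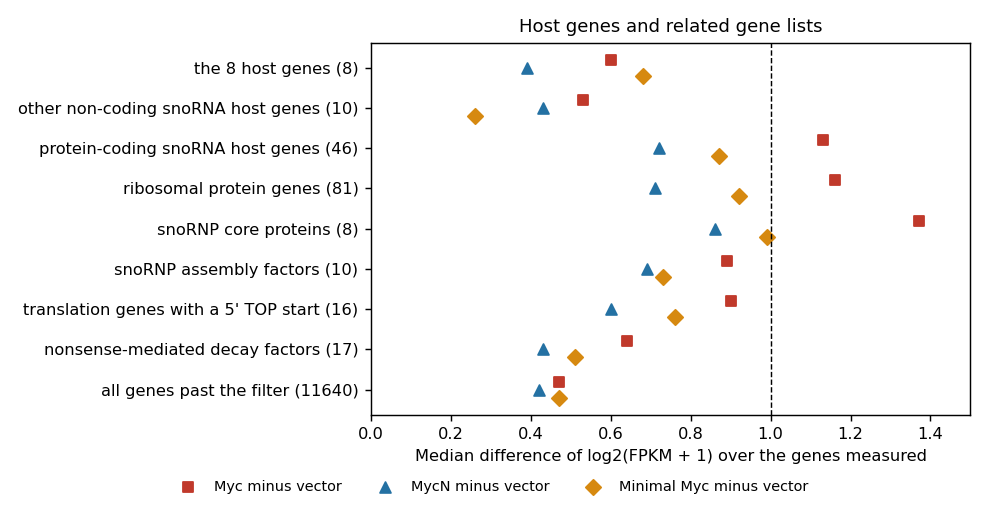
Median difference of log2(FPKM + 1) from vector (x axis) over the measured genes of each list (y axis, number of genes in brackets) in Myc, MycN and Minimal Myc, with 2-fold dashed. The 8 host genes lie at 0.60, 0.39 and 0.68, near all genes at 0.47, 0.42 and 0.47, while protein-coding hosts lie at 1.13, 0.72 and 0.87, and relative to ribosomal protein genes the medians of the 8 are below vector, at -0.50, -0.27 and -0.23.

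The nearest protein-coding genes of RefSeq gave 16 neighbours, of which 9 passed the filter. Their medians were 0.66 with Myc, 0.53 with MycN and 0.72 with Minimal Myc. Rcc1, the nucleotide exchange factor of Ran, next to Snhg3, was 23.0 FPKM in vector cells, 68.3 with Myc, 40.9 with MycN and 51.5 with Minimal Myc. In MycN it was thus above vector where Snhg3 was below, in unscaled FPKM. Snhg1 lies between Slc3a2, the heavy chain of amino acid transporters, at 68.0, 70.9, 69.2 and 77.3 FPKM, and Wdr74, a ribosome assembly factor, at 31.4, 61.3, 42.8 and 52.3. The difference from vector was higher for Snhg1 than for Slc3a2 in all 3 comparisons. In unscaled FPKM it was 0.72, 0.47 and 0.42 for Snhg1 and 0.06, 0.03 and 0.18 for Slc3a2. Minus the median gene that of Snhg1 was 0.24, 0.05 and -0.05, so its size depends on the scale. Trnau1ap, a selenocysteine tRNA-associated protein beside Snhg12, was 12.9, 26.4, 19.1 and 32.4 FPKM, and Syncrip, an RNA-binding protein beside Snhg5, 37.1, 60.3, 47.1 and 60.7. Both pairs were lowest in vector and second lowest in MycN. Phactr4 beside Snhg3 was 8.04, 13.3, 11 and 10.3 FPKM, Cenpl beside Gas5 4.91, 7.47, 8.43 and 9.67, Zfp949 beside Snhg5 1.51, 1.67, 2.79 and 1.99, and Dipk1b beside Snhg7 6.29, 4.05, 11.4 and 16.

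Genes that overlap a host in RefSeq were looked at because their fragments can be shared. Mcmdc2, a meiotic relative of replication helicase subunits that overlaps Snhg6, was 6.46 FPKM in vector cells, 2.45 with Myc, 4.23 with MycN and 2.45 with Minimal Myc. It was below vector in the 3 other libraries, where Snhg6 was above, but between Myc and MycN both genes were higher in MycN. Zbtb37, which overlaps Gas5, stood at 1.39, 1.60, 1.33 and 1.47 FPKM. The libraries kept strand, but the labels do not say whether fragments were assigned by strand. The part of such overlaps in the Snhg6 values was not tested.

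Of the 28 snoRNAs inside the hosts, 10 have a row of their own in the table and 9 are above 0 (Snora24 of Snhg8 is listed at 0). With poly(A) selection and fragments longer than most snoRNAs, these FPKM are weak measures of the mature RNAs. In Myc and in Minimal Myc 8 of 9 lay on the same side of vector as their host, and in MycN 5 of 9. The hosts of these 9 were all above vector in unscaled FPKM, so this counts snoRNAs above vector, as 83.5% of all genes were in Myc, 83.0% in Minimal Myc and 81.8% in MycN, and it moves with the scale as those shares do. Snord47 was 971 FPKM in vector cells, 1394 with Myc, 796 with MycN and 1440 with Minimal Myc, so it was below vector in MycN while Gas5 was above. Snord87 was 236, 303, 425 and 305 FPKM and did not share the high value of Snhg6 in Minimal Myc. The Snhg12 snoRNAs differed among themselves, with Snord99 at 713, 1911, 588 and 850, Snora44 at 32.4, 78.1, 46.7 and 84.6, Snora61 at 283, 391, 489 and 301, and Snora16a at 34.7, 42.3, 39.7 and 54.2. Snord22 of Snhg1 was 391, 504, 567 and 439 FPKM, and Snora43 and Snora17 of Snhg7 were 65.8, 70.5, 44.7 and 45.7 and 79.8, 78.8, 37.8 and 91.7.

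The genes nearest to the median of the 8 over the 3 differences from vector were Pigs (distance 0.007), Atrip (0.008), Romo1 (0.012), Zdhhc5 (0.013) and Atp5j2 (0.033). Pigs stood at 13.5 FPKM in vector cells, 20.9 with Myc, 18.0 with MycN and 22.3 with Minimal Myc. Nearest to Gas5 were Cdc73 (0.025), Gins4 (0.026) and Atp5g3 (0.038), and to Snhg1 Ikbkap (0.027), Oip5 (0.033) and Tnrc6a (0.039). None of the 11 is a snoRNA host in the lists used. With 3 differences from 1 shared vector library, many genes lie this close.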

How the data were processed

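Polyadenylated RNA of 4 cultures, 1 library each, was sequenced. The submitters' processing notes name build mm9, Cufflinks 2.2.0 and TopHat2 2.0.11 without their roles. The authors deposited 1 table of FPKM and 1 in which each library is multiplied by a factor (2.04 for Myc, 1.30 for MycN, 1.28 for Minimal Myc). The 32 NanoString rows in each, 0 of them for a host gene, were left out. Identical rows of a gene were merged and differing rows summed. Kept genes averaged 1 FPKM or more, and 310 small RNA genes were left out. Differences are of log2(FPKM + 1), counted at 2-fold. The calculation was tested on simulated data. Depth was estimated from the commonest value of FPKM times length (less 200 bases) among genes over 2000 bases below 0.1 FPKM. Older symbols were matched through RefSeq synonyms. Python 3.11.15, pandas 2.3.3 and numpy 2.4.6 were used.

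Named were all members, all measured other non-coding hosts, per other list the 3 genes with the largest and the 1 with the smallest mean difference from vector, nearest neighbours, contained snoRNAs and the nearest patterns. Symbols starting with Gm, LOC or ending in Rik were replaced in the last. Overlapping genes were chosen after their values were seen. Members and lists were chosen with earlier results of these data known. Alternatives were the scaled table, a pseudocount of 0.1, centring, equal sums, a ribosomal protein scale, the largest of differing rows, no filter and a mean of at least 5 FPKM.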

Additional observations from a re-analysis of the deposited data

Results flagged for a closer look

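Snhg3 and Snhg8 lay on opposite sides of vector in different cultures, in unscaled FPKM. Snhg3 differed from vector by 0.43 with Myc, -0.32 with MycN and 0.47 with Minimal Myc on the log2(FPKM + 1) scale. Snhg8 differed by 0.13, -0.24 and 0.60. The split depends on the scale. In the authors' scaled table both genes were above vector in MycN too, by 0.05 (Snhg3) and 0.12 (Snhg8). Relative to ribosomal protein genes Snhg3 differed by -0.67, -0.98 and -0.46 and Snhg8 by -0.93, -0.87 and -0.31. With 1 library per culture the difference between the cultures was not tested.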

How the results depend on the processing

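With the authors' scaled table the host genes at least 2-fold higher than vector numbered 8 in Myc (0 unscaled), 1 in MycN (0) and 4 in Minimal Myc (1), and 3 were at least 2-fold lower in MycN than in Myc (0). All genes moved with them: 78.5%, 27.4% and 33.7% were 2-fold higher than vector, and 20.2% were 2-fold lower in MycN than in Myc. In Minimal Myc against vector the count was 0 with centring, with equal sums of the genes past the filter and on the ribosomal protein scale. The other 89 counts under the 8 alternatives equalled the main ones. A sign changed for 28 of 48 host gene differences on the ribosomal protein scale, 14 with equal sums, 9 with centring and 7 in the scaled table. With the pseudocount of 0.1, the largest of differing rows and the other filters 0 did. No paired analysis was possible because each culture has 1 library, and no replicate could be left out.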
